A study of Mus musculus with 12 samples.

Results

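The 10 genes described here detect foreign or misplaced nucleic acid in the cell or pass that signal on: Ifih1, Ddx58, Dhx58, Zbp1, Tlr3, Mavs, Eif2ak2, Ticam1, Tbk1 and Adar. They were chosen by name, as sensors of the cytosol and endosome with their main adaptors, kinase and editing enzyme. Earlier results of these data were known at that choice, so their counts and medians beside those of all genes are not independent evidence. All 10 of 10 were measured among the 22180 genes tested. Each had exactly 1 probe set that carried a single gene symbol, so each level below comes from 1 probe set of an Affymetrix array. Levels are log2 values, on which a difference of 1 is a doubling of signal. Levels of different genes are not compared, because probe sets differ in brightness.

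The cells were mouse adipocytes grown in culture from precursors of inguinal fat, and every sample carried R26Cre and Prdm16floxEx9, in which exon 9 of the transcription factor gene Prdm16 is floxed. They were given 1 uM 4-hydroxytamoxifen, the ligand that activates the recombinase, or its solvent ethanol for 3 days in the growth phase. A differentiation medium with IBMX, indomethacin, dexamethasone, insulin and T3 followed, with or without 1 uM rosiglitazone, an agonist of the adipocyte regulator PPARgamma. There were 3 arrays in each group, and the groups are named EtOH and 4OHT without rosiglitazone and EtOH_Rosi and 4OHT_Rosi with it. The common protocol text mentions rosiglitazone for all samples, and samples were put in a rosiglitazone group only where their own label gives it. No group without Cre or without the floxed allele received 4-hydroxytamoxifen, so the agent, Cre activity and the excision cannot be told apart. No label says that replicates were separate cultures, so the p-values reflect only how these arrays vary, and that variation may be technical.

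Array medians lay between 5.97 and 6.05 and the tested genes had a median level of 6.60. Over all genes, the correlation was 0.996 to 0.998 within a group and 0.981 to 0.996 between groups. The Prdm16 probe set averaged 6.63 in EtOH and 6.46 in 4OHT (difference -0.17 ± 0.10, limma adjusted p = 0.455). With rosiglitazone it averaged 7.37 in EtOH_Rosi and 6.65 in 4OHT_Rosi (difference -0.71 ± 0.10, limma adjusted p = 0.000646). No source used here says where its probes lie relative to that exon.

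Cells recognise viral and misplaced self RNA mainly by its form. In the cytosol the helicases RIG-I (Ddx58) and MDA5 (Ifih1) bind RNA with an uncapped end or long double-stranded RNA and signal through MAVS on mitochondria, and LGP2 (Dhx58) modulates both. In endosomes TLR3 binds double-stranded RNA and signals through TRIF, the product of Ticam1. Both routes meet at the kinase TBK1, which phosphorylates the transcription factor IRF3 and so starts transcription of type I interferon genes. ZBP1 binds nucleic acid in the left-handed Z form and can start programmed cell death, PKR (Eif2ak2) halts translation when it binds double-stranded RNA, and ADAR edits adenosine to inosine in double-stranded RNA, which keeps self RNA from being sensed. Several of these genes are themselves induced by interferon, through the factor ISGF3, which binds an element in their promoters. Adipocytes and their precursors are known to express such sensors and to respond to interferon.

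Promoter sequences are shown because 7 of the 10 genes were higher after 4-hydroxytamoxifen in both media and 3 were not, and the interferon element is the sequence by which such genes are best known. RefSeq promoter windows on GRCm38.p6, of 300 bases from 250 before to 50 after a transcript start, were held for 8 of the 10 genes, 10 windows in all. Dhx58 and Zbp1 had no entry. The motif AANNGAAA (TTTCNNTT on the other strand), only a part of the core of the interferon element, was searched on both strands. So was the core of the interferon element, GAAA, any 2 bases, then GAAA (TTTC, any 2 bases, then TTTC on the other strand). Every match of this longer motif holds a match of the shorter one. The STAT dimer element TTCNNNGAA, which reads the same on both strands, was the third motif searched. In the sequences below, printed 5′ to 3′ on the gene's strand, capitals mark every match of the first and second motif, and positions count from the transcript start as +1. The genes with a match come first.
Ifih1, chr2:62646207-62646236, minus strand, +20 to +49: ggagaagagAATCGAAACAGAAAccgatct
Ddx58, chr4:40239826-40239925, minus strand, the 100 bases before the start: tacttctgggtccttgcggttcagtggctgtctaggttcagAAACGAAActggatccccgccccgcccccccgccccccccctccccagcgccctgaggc
Ddx58, chr4:40239804-40239833, minus strand, -8 to +22: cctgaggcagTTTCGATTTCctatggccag
Tlr3, chr8:45410381-45410480, minus strand, the 100 bases before the start: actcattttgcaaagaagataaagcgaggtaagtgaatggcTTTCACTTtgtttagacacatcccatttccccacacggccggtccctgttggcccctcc
Eif2ak2, chr17:78882536-78882565, minus strand, +8 to +37: gagtccgccggGAAAACGAAAcagaagaga
Adar, chr3:89730736-89730765, plus strand, +19 to +48: ccttttcaaggAAACGAAAgtgaactctgg
The 3 genes with no match were Mavs, Tbk1 and Ticam1, shown by the 100 bases before their starts.
Mavs, chr2:131233963-131234062, plus strand: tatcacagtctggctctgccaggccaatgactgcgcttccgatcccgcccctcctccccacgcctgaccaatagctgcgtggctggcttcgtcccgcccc
Tbk1, chr10:121586795-121586894, minus strand: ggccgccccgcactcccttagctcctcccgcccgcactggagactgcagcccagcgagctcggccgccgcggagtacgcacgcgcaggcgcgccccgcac
Ticam1, chr17:56276768-56276867, minus strand: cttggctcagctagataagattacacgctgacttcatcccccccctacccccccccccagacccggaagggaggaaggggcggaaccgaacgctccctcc

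The short motif lay in the window of all 5 of the higher genes that have one (for Adar, in 1 of its 3 windows), and in 0 of the 3 others. Over all 32851 windows of 27025 genes it lay in 23.9% of windows and 26.7% of genes. The long motif, the core of the interferon element, lay in Ifih1 at +33, Ddx58 at +3 and Eif2ak2 at +19. It lay in no window of Tlr3 or Adar. Over all windows it lay in 3.44% of windows and 3.99% of genes. The STAT element lay in Eif2ak2 at -178 and in Adar at +23, where it overlaps the short motif, against 8.3% of all windows and 9.55% of genes. The Tlr3 window and the Adar window with the match belong to transcript starts other than the outermost start of the gene. A match describes these letters and is not a bound site, the motifs were chosen with the expression results known, and no test was made.

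After 4-hydroxytamoxifen without rosiglitazone, 7 of the 10 genes rose and 0 fell: the cytosolic RNA receptors Ifih1, Ddx58 and Dhx58, the endosomal receptor Tlr3, the Z-form sensor Zbp1, the kinase Eif2ak2 and the editing enzyme Adar. Their log2 changes ran from 0.52 to 1.31, which is 1.43-fold to 2.47-fold. A change was called at a Benjamini-Hochberg adjusted p under 0.05 over all genes in limma, and of all genes tested 2.13% were called higher and 1.79% lower. With rosiglitazone the same 7 genes rose, by 0.62 to 2.34 (1.54-fold to 5.05-fold), and 0 fell, against 4.65% of all genes called higher and 3.38% lower. The adaptors Mavs and Ticam1 and the kinase Tbk1 passed in neither medium. The median change of the 10 genes was 0.65 without rosiglitazone and 0.71 with it, beside 0.00 and -0.01 over all genes. All arrays given 4-hydroxytamoxifen were higher in 11.2% of all genes without rosiglitazone and in 11.5% with it. Those shares belong beside each full separation described below.

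**Figure D1:**
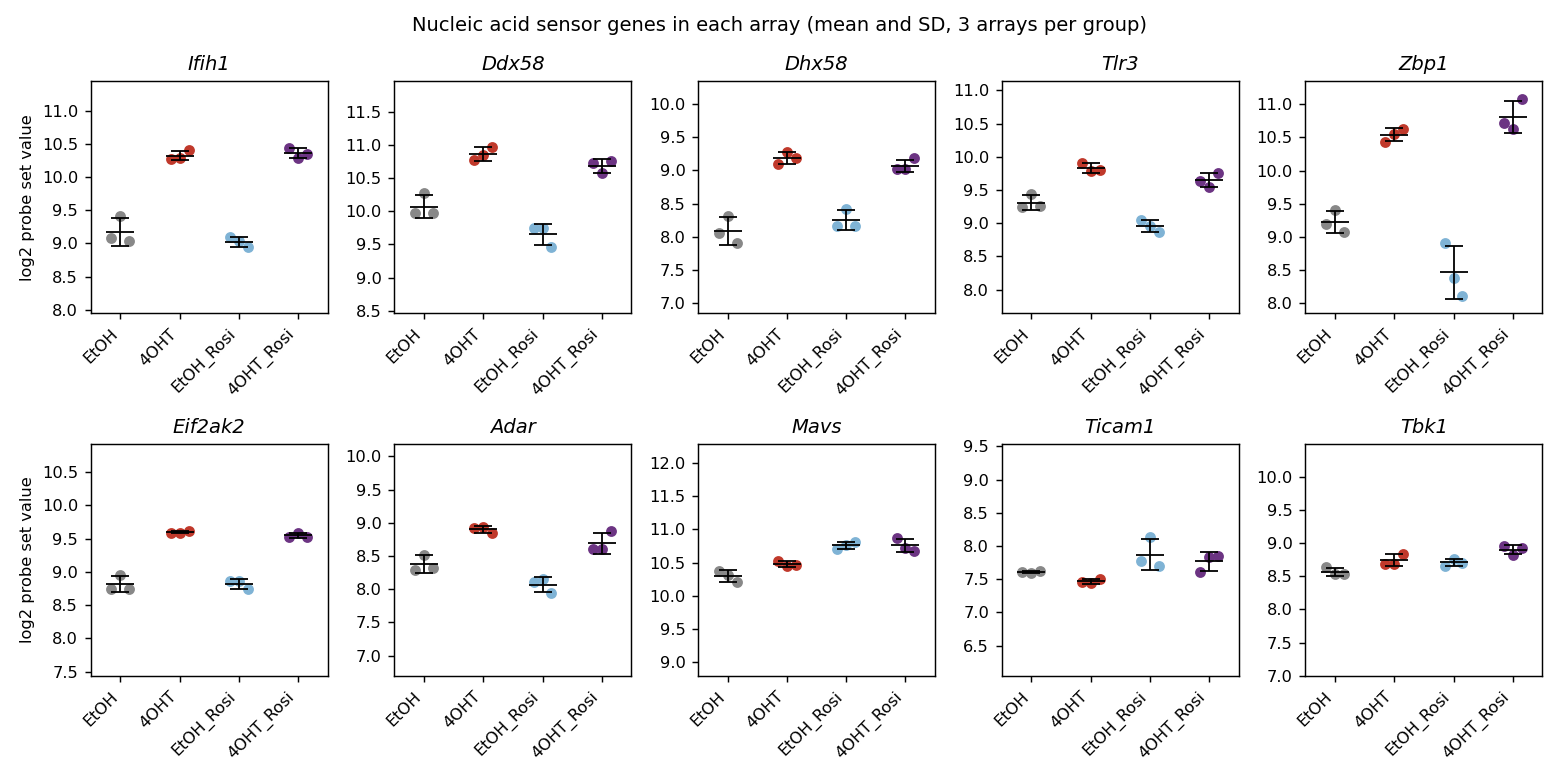
Log2 level of each of the 10 genes (one panel per gene, each with its own y axis) on each of the 12 arrays by group; points are arrays and bars are the mean and SD (n = 3). In the 7 genes from Ifih1 to Adar that rose, all 4OHT arrays lie above all EtOH arrays in both media. Of all genes, 11.2% without rosiglitazone and 11.5% with it do so. For Mavs and Ticam1 the arrays with rosiglitazone overlap between EtOH_Rosi and 4OHT_Rosi.

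Ifih1 (chr2:62595618-62646255, GRCm38.p6) encodes MDA5, the receptor for long double-stranded RNA. It read 9.08, 9.41 and 9.03 on the EtOH arrays and 10.27, 10.29 and 10.40 on the 4OHT arrays. With rosiglitazone it read 9.09, 9.03 and 8.95 in EtOH_Rosi and 10.44, 10.28 and 10.35 in 4OHT_Rosi. Every array given 4-hydroxytamoxifen was above every ethanol array, with a gap of more than the whole spread within any group. The difference was 1.15 ± 0.09 (SE, limma adjusted p = 2.27e-05) without rosiglitazone, a 2.21-fold rise. With rosiglitazone it was 1.33 ± 0.09 (limma adjusted p = 3.25e-06), or 2.52-fold. The levels fell into a low pair, EtOH at 9.17 ± 0.21 (SD, n = 3) and EtOH_Rosi at 9.02 ± 0.07, and a high pair, 4OHT at 10.32 ± 0.07 and 4OHT_Rosi at 10.36 ± 0.08. Neither pair differed within itself beyond its spread by the test (limma adjusted p = 0.259 and 0.838).

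Ddx58 (chr4:40203777-40239825) encodes RIG-I, which binds RNA ends that lack a cap. Its EtOH arrays read 9.97, 10.27 and 9.97 and its 4OHT arrays 10.77, 10.84 and 10.96. With rosiglitazone the values were 9.75, 9.74 and 9.46 after ethanol and 10.73, 10.57 and 10.75 after 4-hydroxytamoxifen. The groups did not overlap in either medium, and the EtOH_Rosi arrays were the lowest of all. Ddx58 rose by 0.79 ± 0.10 without rosiglitazone (1.73-fold, limma adjusted p = 0.000517). It rose by 1.03 ± 0.10 with it (2.05-fold, limma adjusted p = 3.81e-05).

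Dhx58 (chr11:100694884-100704271) encodes LGP2, a relative of RIG-I and MDA5 that lacks their signalling domain. It read 8.05, 8.32 and 7.91 in EtOH and 9.10, 9.28 and 9.18 in 4OHT. The EtOH_Rosi arrays gave 8.16, 8.42 and 8.16 and the 4OHT_Rosi arrays 9.02, 9.02 and 9.18. Here too the arrays separated fully, and the 2 ethanol groups overlapped each other. The rise was 1.09 ± 0.10 (2.13-fold, limma adjusted p = 6.28e-05) without rosiglitazone. With rosiglitazone the rise was 0.83 ± 0.10 (1.77-fold, limma adjusted p = 0.000268).

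Tlr3 (chr8:45395665-45411075), the double-stranded RNA receptor of endosomes, read 9.24, 9.44 and 9.26 in EtOH and 9.91, 9.79 and 9.80 in 4OHT. With rosiglitazone it read 9.05, 8.95 and 8.87 in EtOH_Rosi and 9.64, 9.55 and 9.76 in 4OHT_Rosi. All arrays given 4-hydroxytamoxifen were higher in both media, and the EtOH_Rosi arrays were the lowest. Tlr3 rose by 0.52 ± 0.08 without rosiglitazone (1.43-fold, limma adjusted p = 0.0016). The rise with rosiglitazone was 0.69 ± 0.08 (1.62-fold, limma adjusted p = 9.84e-05).

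Zbp1 (chr2:173206612-173218959), the sensor of Z-form nucleic acid, had the largest estimated change of the 10 genes in both media. On the EtOH arrays it read 9.20, 9.41 and 9.08, and on the 4OHT arrays 10.43, 10.55 and 10.63. On the EtOH_Rosi arrays it read 8.91, 8.39 and 8.12, and on the 4OHT_Rosi arrays 10.72, 10.63 and 11.08. The groups did not overlap, and EtOH_Rosi had the widest spread of any group of these genes (SD 0.40, n = 3), with its first array highest. Zbp1 rose by 1.31 ± 0.17 without rosiglitazone (2.47-fold, limma adjusted p = 0.000564). With rosiglitazone it rose by 2.34 ± 0.17 (5.05-fold, limma adjusted p = 4.93e-06). In order of level, 4OHT_Rosi (10.81 ± 0.24) and 4OHT (10.54 ± 0.10) did not differ by the test (limma adjusted p = 0.297), while EtOH (9.23 ± 0.17) lay above EtOH_Rosi (8.47 ± 0.40).

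Eif2ak2 (chr17:78850504-78882572), the gene of the translation-halting kinase PKR, read 8.75, 8.96 and 8.75 in EtOH and 9.58, 9.59 and 9.62 in 4OHT. In EtOH_Rosi it read 8.87, 8.86 and 8.74, and in 4OHT_Rosi 9.52, 9.59 and 9.53. The 4OHT arrays lay within a range far narrower than their distance from the EtOH arrays. The rise was 0.78 ± 0.07 (1.71-fold, limma adjusted p = 3.57e-05) without rosiglitazone. It was 0.72 ± 0.07 (1.65-fold, limma adjusted p = 2.52e-05) with it.

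Adar (chr3:89714469-89753455), which edits double-stranded RNA, read 8.29, 8.52 and 8.32 in EtOH and 8.92, 8.94 and 8.85 in 4OHT. In EtOH_Rosi it read 8.11, 8.15 and 7.94, and in 4OHT_Rosi 8.60, 8.60 and 8.87. The arrays did not overlap between ethanol and 4-hydroxytamoxifen in either medium. Adar rose by 0.53 ± 0.09 without rosiglitazone (1.44-fold, limma adjusted p = 0.00416) and by 0.62 ± 0.09 with it (1.54-fold, limma adjusted p = 0.000726). Adar makes a long isoform from an interferon-inducible start and a short one from other starts, and no source used here says which of them this probe set reads.

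The 3 signalling genes gave smaller differences. Mavs (chr2:131234063-131248025), the mitochondrial adaptor of RIG-I and MDA5, read 10.38, 10.32 and 10.21 in EtOH and 10.53, 10.45 and 10.47 in 4OHT. With rosiglitazone it read 10.71, 10.77 and 10.81 after ethanol and 10.87, 10.72 and 10.68 after 4-hydroxytamoxifen. The 4OHT arrays were all higher without rosiglitazone, as in 11.2% of all genes, and the groups overlapped with it. The difference was 0.18 ± 0.07 (95% interval 0.04 to 0.32, limma adjusted p = 0.182) without rosiglitazone and -0.01 ± 0.07 (-0.15 to 0.14, limma adjusted p = 0.973) with it.

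Ticam1 (chr17:56269462-56276767), the gene of the TLR3 adaptor TRIF, read 7.61, 7.59 and 7.62 in EtOH and 7.46, 7.44 and 7.51 in 4OHT. In EtOH_Rosi it read 7.78, 8.14 and 7.70, and in 4OHT_Rosi 7.61, 7.84 and 7.85. The 4OHT arrays were all below the EtOH arrays, as in 11.7% of all genes, but by little, and the arrays with rosiglitazone overlapped (for comparison, 10.3% of all genes were fully lower there). The differences were -0.14 ± 0.10 (95% interval -0.35 to 0.08, limma adjusted p = 0.585) without rosiglitazone and -0.11 ± 0.10 (-0.32 to 0.11, limma adjusted p = 0.614) with it.

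Tbk1 (chr10:121546455-121586794), the kinase at which both routes meet, read 8.64, 8.53 and 8.54 in EtOH and 8.68, 8.69 and 8.84 in 4OHT. In EtOH_Rosi it read 8.66, 8.76 and 8.70, and in 4OHT_Rosi 8.96, 8.82 and 8.92. All arrays given 4-hydroxytamoxifen were higher in both media, as in 11.2% and 11.5% of all genes, without passing the test. The differences were 0.17 ± 0.06 (95% interval 0.03 to 0.31, limma adjusted p = 0.208) and 0.19 ± 0.06 (0.05 to 0.33, limma adjusted p = 0.0926). The upper bounds for Mavs, Ticam1 and Tbk1 were at most 0.33. Among the 7 genes that rose, the smallest change was 0.52 (Tlr3 without rosiglitazone, 95% interval 0.36 to 0.68). Their smallest lower bound was 0.34 (Adar without rosiglitazone), close to those upper bounds. The 7 were picked for passing the test, so their smallest estimates may be too high.

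**Figure D2:**
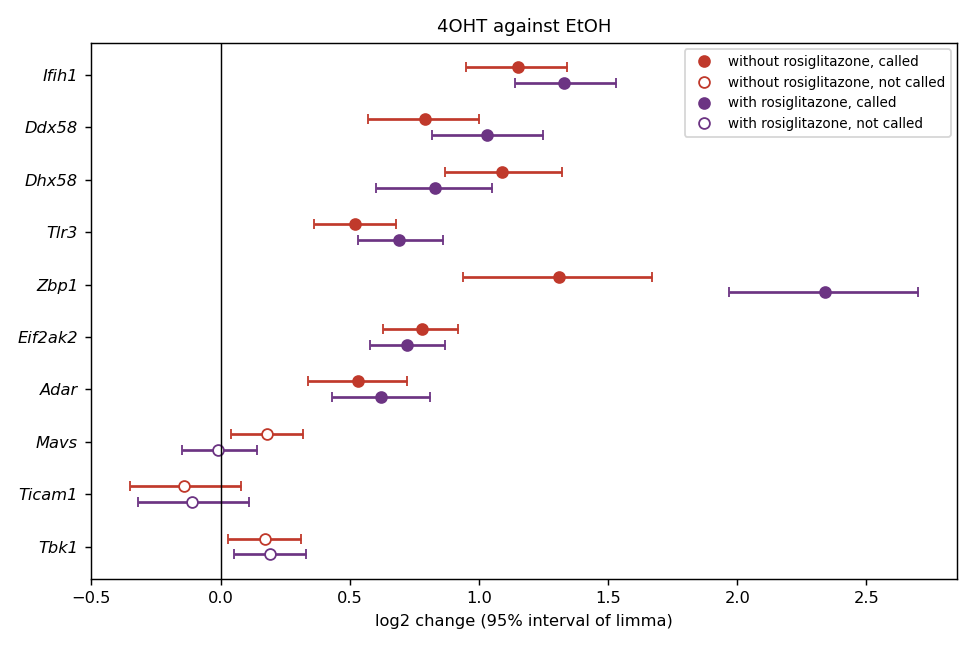
Log2 change after 4-hydroxytamoxifen against ethanol for the 10 genes without and with rosiglitazone, with the 95% interval of limma; filled points passed an adjusted p of 0.05 over all genes. The 7 genes that rose lie between 0.52 and 2.34, and Mavs, Ticam1 and Tbk1 lie between -0.14 and 0.19.

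In 20 alternative fits each, the 7 genes were called higher 140 of 140 times in each medium, with a largest adjusted p of 0.0239 without rosiglitazone and 0.011 with it. The plot of all genes sets their changes beside those of every gene tested.

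**Figure D3:**
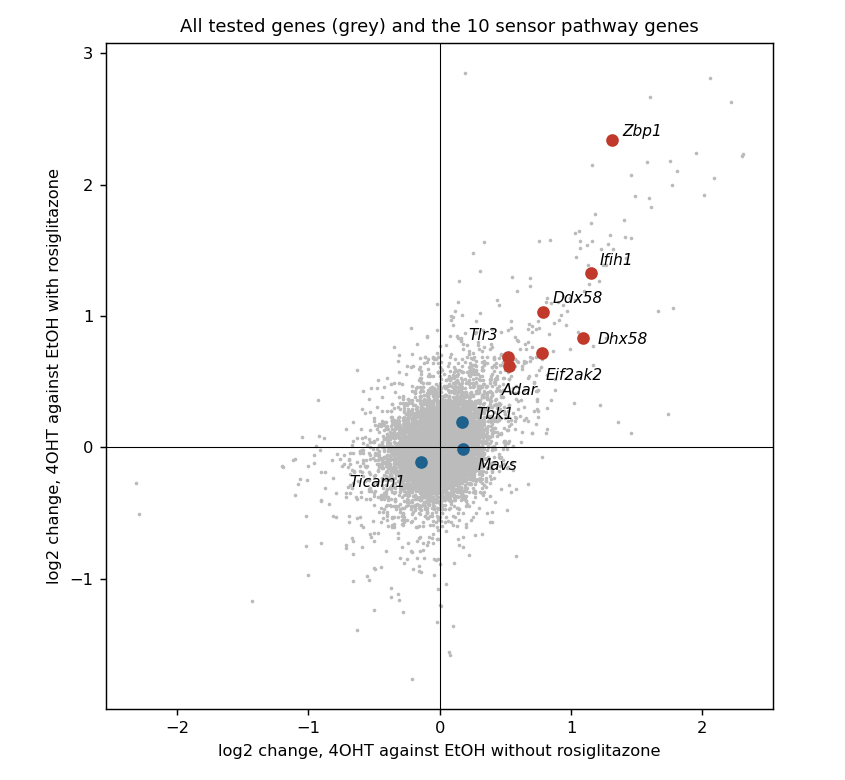
Log2 change after 4-hydroxytamoxifen without rosiglitazone (x axis) and with it (y axis) for every tested gene (grey) and the 10 genes (red where called in both media, blue where called in neither). Zbp1 lies at 1.31 and 2.34 and the red points follow it down to Tlr3 and Adar, while the blue points lie in the grey cloud around 0.

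Whether the effect of 4-hydroxytamoxifen depended on rosiglitazone was tested as the difference between both effects. In limma 0 of the 10 genes were called higher and 0 lower, against 0.523% and 0.482% of all genes. Zbp1 alone of the 10 had an unadjusted p under 0.05. The Zbp1 effect was larger with rosiglitazone by 1.03 ± 0.24 (95% interval 0.52 to 1.54, limma adjusted p = 0.0629). Without the first EtOH_Rosi array, the highest of its group, that difference was 1.25 and was called (limma adjusted p = 0.00936). Over all single arrays left out it ran from 0.85 to 1.25, with limma adjusted p from 0.00936 to 0.166. The other 9 genes had differences between -0.27 (Dhx58, limma adjusted p = 0.45) and 0.25 (Ddx58, limma adjusted p = 0.476).

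Rosiglitazone itself was compared with none in the same cells. After ethanol, Mavs rose and Ddx58, Zbp1, Tlr3 and Adar fell, against 14.4% of all genes higher and 16.3% lower. After 4-hydroxytamoxifen, Mavs and Ticam1 rose and 0 fell, against 11.6% and 12.1%. Those shares over all genes are large, and nothing particular to the 10 genes is read from the counts. Without overlap between arrays, 3 were higher and 4 lower after ethanol, against 19.9% and 20.9% of all genes, and 2 were higher and 2 lower after 4-hydroxytamoxifen, against 18.1% and 18.0%. Their median change was -0.07 after ethanol and -0.01 after 4-hydroxytamoxifen, beside 0.01 and 0.00 over all genes.

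Mavs rose by 0.46 ± 0.07 after ethanol (1.38-fold, limma adjusted p = 0.000104) and by 0.27 ± 0.07 after 4-hydroxytamoxifen (1.21-fold, limma adjusted p = 0.00796), with all arrays higher in both. It was the only one of the 10 genes called in both rosiglitazone comparisons. Ticam1 rose by 0.30 ± 0.10 after 4-hydroxytamoxifen (1.23-fold, limma adjusted p = 0.0448). That call was lost without any 1 of the EtOH or 4OHT arrays or the second or the third 4OHT_Rosi array, with limma adjusted p up to 0.138. After ethanol the Ticam1 difference was 0.27 ± 0.10 (limma adjusted p = 0.0582), with all arrays higher.

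Zbp1 fell by 0.76 ± 0.17 after ethanol (1.69-fold lower, limma adjusted p = 0.00312), and all 3 EtOH_Rosi arrays were below the EtOH arrays. Ddx58 fell by 0.42 ± 0.10 (limma adjusted p = 0.00489) and Tlr3 by 0.36 ± 0.08 (limma adjusted p = 0.00239). Adar fell by 0.31 ± 0.09 (limma adjusted p = 0.015). The Adar call was lost without the second EtOH array (-0.24, limma adjusted p = 0.0806) or the third EtOH_Rosi array (-0.25, limma adjusted p = 0.0699). After 4-hydroxytamoxifen the same 4 genes gave 0.27 for Zbp1 (limma adjusted p = 0.297), -0.17 for Ddx58 (0.261), -0.18 for Tlr3 (0.109) and -0.21 for Adar (0.105). Ifih1, Dhx58, Eif2ak2 and Tbk1 were called in neither rosiglitazone comparison, with differences from -0.15 to 0.16.

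**Figure D4:**
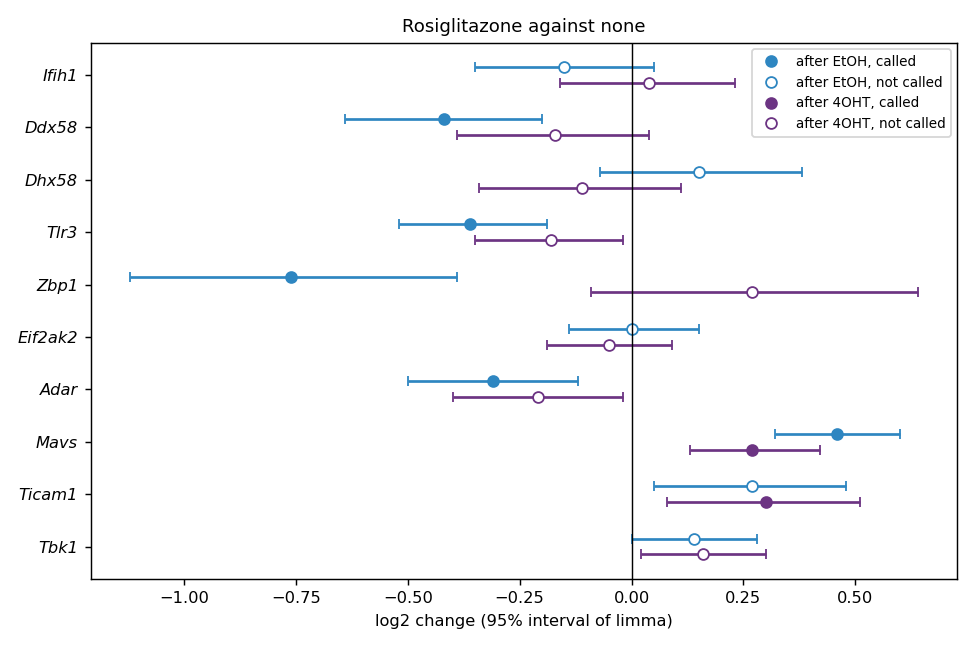
Log2 change with rosiglitazone against none for the 10 genes after ethanol and after 4-hydroxytamoxifen, with the 95% interval of limma; filled points passed an adjusted p of 0.05 over all genes. Mavs lies at 0.46 and 0.27, and Zbp1 has its called point at -0.76 and its other point at 0.27.

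The 7 genes moved together over the 12 arrays. Their 21 pairs had Pearson correlations of 0.85 to 0.99 (median 0.94), and of 0.35 to 0.88 (median 0.68) after the group means were removed. These describe arrays that share the 4 groups, and no test was made. The 7 were picked for their rise on these same arrays, and Mavs, Ticam1 and Tbk1 are those not called. High correlations among the 7 over the 12 arrays, and lower ones with the others, follow largely from that choice. Against the 7, Mavs correlated at -0.22 to 0.25, Ticam1 at -0.56 to -0.23 and Tbk1 at 0.36 to 0.68. After the group means were removed, these ranges were -0.39 to 0.19 for Mavs, -0.09 to 0.47 for Ticam1 and -0.24 to 0.25 for Tbk1.

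Among 10423 other named genes of at least median level, the nearest in pattern to Ifih1 were Herc6, Irf7 and Usp18 (Pearson r 0.99 each over 12 arrays). For Ddx58 they were Stat2, Ddx60 and Parp14 (0.99 each), and for Dhx58 Tap1 (0.98), Oasl1 (0.98) and Irf7 (0.97). Nearest to Zbp1 were Iigp1, Rtp4 and Gbp10 (0.99 each). Tlr3 had Irgm2 (0.99), Stat2 (0.99) and Rnf213 (0.98), and Eif2ak2 had Irf7 (1.00), Herc6 (0.98) and Slfn2 (0.98). Adar had Phf11d, Stat2 and Sp110 (0.98 each). These neighbours were picked by this same correlation, for genes already called, so high values follow from the choice. After the group means were removed, the correlations ran from 0.48 (Dhx58 with Irf7) to 0.95 (Ddx58 with Ddx60).

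Other genes of the sensing pathway were read from lists. Beside each count after 4-hydroxytamoxifen stand 2.13% of all genes called higher and 1.79% lower without rosiglitazone. With rosiglitazone the shares were 4.65% and 3.38%. Of 14 measured other RNA sensors and cofactors, 3 rose and 0 fell without rosiglitazone, and 4 rose and 1 fell with it, with medians of 0.13 and 0.14. Ddx60, a helicase described as a partner of RIG-I, rose by 1.30 ± 0.11 (limma adjusted p = 3.83e-05) without rosiglitazone and by 1.62 ± 0.11 (limma adjusted p = 3.73e-06) with it. Trim25, a ubiquitin ligase of the RIG-I route, rose by 0.67 ± 0.13 (limma adjusted p = 0.00854) and 0.90 ± 0.13 (limma adjusted p = 0.000672). Zc3hav1, the zinc-finger antiviral protein that binds CpG-rich RNA, rose by 0.33 ± 0.07 (limma adjusted p = 0.0185) and 0.51 ± 0.07 (limma adjusted p = 0.000646). The first Zc3hav1 call was lost without the first or the third EtOH array or the second or the third 4OHT array (limma adjusted p up to 0.0949). The helicase gene Dhx36, named after its values were seen, fell with rosiglitazone by 0.27 ± 0.08 (limma adjusted p = 0.044), a call lost without any 1 of 8 arrays.

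Tlr8, the gene of an endosomal Toll-like receptor listed among the RNA sensors, was the fourth that rose with rosiglitazone. It read 7.08, 7.05 and 6.86 in EtOH_Rosi and 7.86, 8.09 and 8.17 in 4OHT_Rosi, against 7.75, 7.58 and 7.34 in EtOH and 7.68, 7.72 and 7.62 in 4OHT. Only the arrays with rosiglitazone separated. Its change was 1.04 ± 0.10 (limma adjusted p = 4.84e-05) with rosiglitazone and 0.12 ± 0.10 (limma adjusted p = 0.68) without it.

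Of 11 measured DNA sensors, 1 rose without rosiglitazone (Ifi209, 1.22 ± 0.19, limma adjusted p = 0.00228) and 2 rose with it (Ifi204, 0.75 ± 0.11, limma adjusted p = 0.000853, and Mndal, 0.54 ± 0.13, limma adjusted p = 0.0244), and 0 fell. The medians were 0.03 and 0.05. All 3 genes belong to the IFI200 family of DNA-binding proteins. The Mndal call was lost without the second or the third EtOH_Rosi array or the first or the third 4OHT_Rosi array (limma adjusted p up to 0.0926). Over single arrays left out, the DNA sensors that rose numbered 1 to 3 in either medium. Cgas and Sting1, the sensor and adaptor of the main cytosolic DNA route, were picked out after their values were seen. Cgas changed by -0.02 and -0.05 (limma adjusted p = 0.946 and 0.763), and Sting1 by -0.29 and -0.09 (limma adjusted p = 0.334 and 0.773). The Cgas probe set averaged only 4.92 to 5.02 in the 4 groups, below the median of 6.60 of the tested genes, and its detection was not tested.

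Of 13 measured adaptors and kinases beyond the 3 named above, 1 rose without rosiglitazone and 2 with it, and 0 fell, with a median of 0.02 in both media. Irf7, the interferon regulatory factor that is itself interferon-inducible, rose by 2.31 ± 0.14 (limma adjusted p = 4.01e-06) and 2.23 ± 0.14 (limma adjusted p = 1.65e-06). Myd88, the adaptor of the other endosomal Toll-like receptors, rose by 0.23 ± 0.06 with rosiglitazone (limma adjusted p = 0.0263), a call lost without any 1 of 4 arrays of that medium. Of 9 measured genes of nucleic acid clearance and restraint, 1 rose without rosiglitazone (Samhd1, 0.23 ± 0.05, limma adjusted p = 0.0276) and 1 fell with it (Pcbp2, -0.21 ± 0.05, limma adjusted p = 0.0276). Each of these calls was lost without any 1 of 5 arrays.

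The lists around Eif2ak2 and Zbp1 were read in the same way. Of 8 measured eIF2alpha kinases and response genes, 0 rose and 2 fell without rosiglitazone, the transcription factor Atf4 (-0.29 ± 0.07, limma adjusted p = 0.0333) and Trib3 (-0.38 ± 0.08, limma adjusted p = 0.0161). With rosiglitazone 1 rose (Ppp1r15b, a phosphatase subunit, 0.24 ± 0.06, limma adjusted p = 0.0272). These 3 calls were lost without any 1 of 4 to 6 arrays. Of 5 measured genes of the ZBP1 death pathway, 1 rose without rosiglitazone, and 2 rose and 1 fell with it. Mlkl, the pore-forming protein of necroptosis, rose by 0.37 ± 0.07 (limma adjusted p = 0.0111) and 0.42 ± 0.07 (limma adjusted p = 0.003), the first call being lost without the third 4OHT array (limma adjusted p = 0.0569). With rosiglitazone, the protease genes gave 0.28 ± 0.07 for Casp8 (limma adjusted p = 0.021; lost without the third EtOH_Rosi array or the second or the third 4OHT_Rosi array, up to 0.085) and -0.39 ± 0.08 for Casp6 (limma adjusted p = 0.00654).

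Type I interferon genes are the transcriptional output of the route through TBK1 described above, which does not cover the type II gene Ifng, also listed. Of 19 measured type I, II and III interferon genes, 0 rose and 0 fell in limma in either medium, and at an unadjusted p under 0.05 there were 0 without rosiglitazone and 1 with it. Their mean log2 level per array was 5.51 to 5.67 over the 4 groups, below the median of 6.60 of the tested genes. Some genes lay above that median. Group means were 8.36 to 8.61 for Ifna1, 8.44 to 8.49 for Ifnl2 and 7.22 to 7.37 for Ifna4. They were 7.10 to 7.36 for Ifnl3 and 6.88 to 7.11 for Ifna15. Detection was not tested for any of the interferon genes, so the absence of calls does not show that they were not induced. Ifnb1, picked out after its values were seen, changed by -0.03 in both media (limma adjusted p = 0.942 and 0.89). Of 10 interferon-stimulated genes taken for comparison, 9 rose without rosiglitazone and 10 with it, with medians of 1.61 and 2.0. That list was written with earlier results of these samples known, so its direction is not independent evidence.

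**Figure D5:**
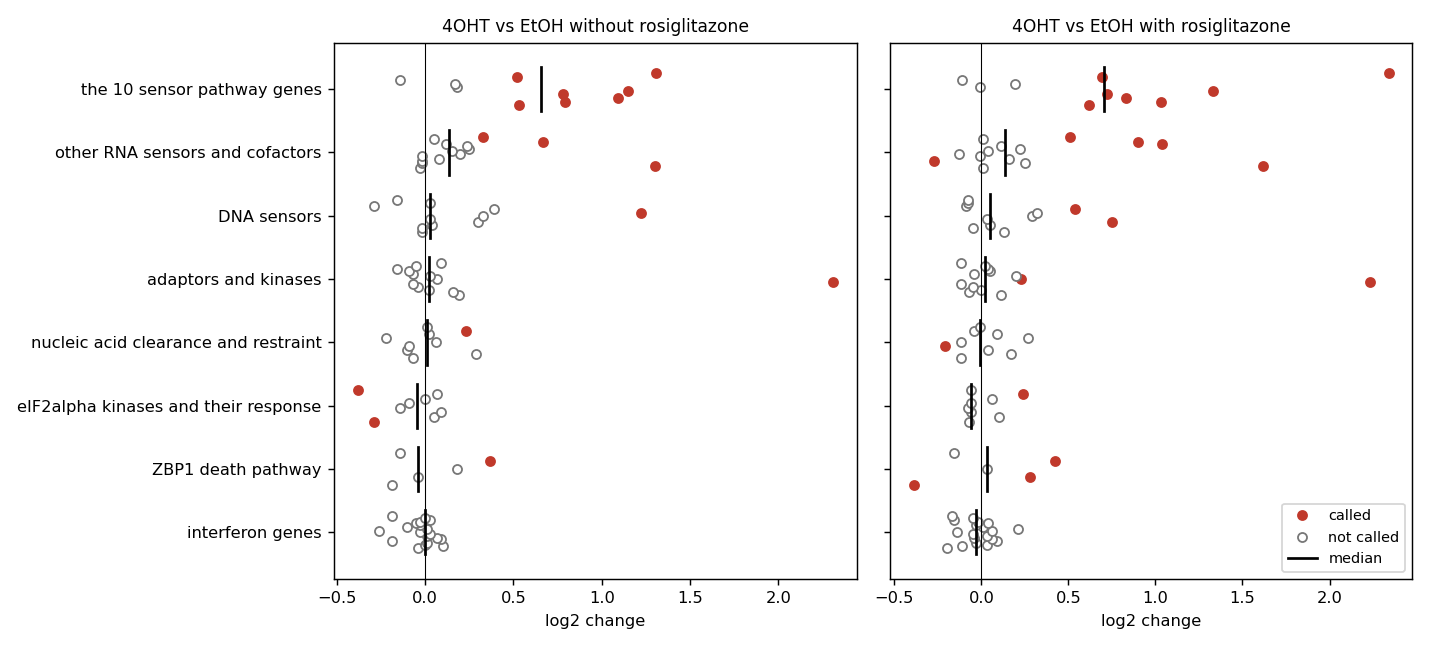
Log2 change after 4-hydroxytamoxifen of every measured gene in the 10 sensor genes and the pathway lists, without and with rosiglitazone; points are genes (filled where called) and bars are list medians. The 10 genes have medians of 0.65 and 0.71, the other RNA sensors 0.13 and 0.14, and the interferon genes 0.00 and -0.03.

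With rosiglitazone against none, 0 DNA sensors rose and 6 of 11 fell after each pretreatment, with medians of -0.44 after ethanol and -0.39 after 4-hydroxytamoxifen. Of all genes, 14.4% were called higher and 16.3% lower after ethanol, and 11.6% and 12.1% after 4-hydroxytamoxifen. After ethanol, Ifi205 (-0.74 ± 0.06, limma adjusted p = 6.31e-07), Ifi207 (-1.08 ± 0.13, limma adjusted p = 2.16e-05), Ifi204 (-0.84 ± 0.11, limma adjusted p = 3.99e-05) and Sting1 (-0.98 ± 0.14, limma adjusted p = 8.43e-05) had the smallest p. Ikbke, the close relative of Tbk1, fell by 0.80 ± 0.06 after ethanol (limma adjusted p = 5.33e-07) and 1.03 ± 0.06 after 4-hydroxytamoxifen (limma adjusted p = 8.05e-08). Unc93b1, the chaperone that carries Tlr3 and its relatives to endosomes, fell by 0.44 ± 0.06 (limma adjusted p = 3.69e-05) and 0.47 ± 0.06 (limma adjusted p = 3.36e-05). The lists of these genes moved both ways. Of 13 adaptors and kinases, 2 rose and 3 fell after ethanol, and 1 rose and 1 fell after 4-hydroxytamoxifen. Of 14 other RNA sensors and cofactors, 2 rose and 5 fell after ethanol, and 1 rose and 2 fell after 4-hydroxytamoxifen. Among 9 genes of nucleic acid clearance and restraint, 1 rose and 3 fell after each pretreatment. Rnf125 was the gene that rose there, by 0.93 and 0.99. The calls of the genes named here held without any 1 array. The count of DNA sensors that fell after 4-hydroxytamoxifen ran from 5 to 7 with an array left out, the call of Ifi204 there being lost without the second 4OHT or the first 4OHT_Rosi array (limma adjusted p up to 0.0709).

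Markers of other cell types were read beside these results, since immune cells express many of the sensors. For counts after 4-hydroxytamoxifen, the shares of all genes were 2.13% higher and 1.79% lower without rosiglitazone, and 4.65% and 3.38% with it. Of 12 macrophage markers, 1 rose and 2 fell after 4-hydroxytamoxifen without rosiglitazone, and 1 rose and 1 fell with it, with medians of -0.18 and 0.10. Their summed signal was 10486 to 12023 in EtOH and 9690 to 10958 in 4OHT, and 7379 to 8052 in EtOH_Rosi and 7741 to 8059 in 4OHT_Rosi, so it overlapped between ethanol and 4-hydroxytamoxifen in both media. The macrophage gene that rose was Mpeg1 (0.52 ± 0.13, limma adjusted p = 0.0406, and 0.89 ± 0.13, limma adjusted p = 0.000868), the first a call lost without any 1 of 6 arrays. Those that fell were Itgam (-0.63 ± 0.12, limma adjusted p = 0.0111, without rosiglitazone) and Lyz2 (-0.24 and -0.20, limma adjusted p = 0.0294 and 0.0416), calls lost without any 1 of 2 to 9 arrays. With rosiglitazone after ethanol, 0 macrophage markers rose and 9 of 12 fell (median -0.54), where Zbp1, Ddx58, Tlr3 and Adar also fell. After 4-hydroxytamoxifen 6 of the 12 markers fell (median -0.27), where 0 of the 10 sensor genes were called lower. Of all genes, 16.3% were called lower after ethanol and 12.1% after 4-hydroxytamoxifen. All 5 endothelial markers fell with rosiglitazone after ethanol and 4 of 5 after 4-hydroxytamoxifen, against the same shares of all genes. Of 5 measured adipose precursor markers, 4 fell with rosiglitazone after each pretreatment, against those shares, and 0 rose. Their medians were -1.35 after ethanol and -1.10 after 4-hydroxytamoxifen. After 4-hydroxytamoxifen without rosiglitazone, Pi16 rose (1.02) and Pdgfra fell (-0.53) among these 5. With rosiglitazone 0 rose and Pdgfra fell (-0.39), a call lost without the first EtOH_Rosi array or the first or the second 4OHT_Rosi array. The part of these cells in the result was not tested, and fewer cells of a type cannot be told apart from less RNA per cell in bulk samples.

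Of 7 measured dendritic cell markers, 1 rose in both media and 0 fell. It was Bst2 (1.27 ± 0.17, limma adjusted p = 0.000781, and 1.39 ± 0.17, limma adjusted p = 0.00023), which many cell types also express when exposed to interferon. The summed signal of the list was 896 to 948 in EtOH and 1387 to 1924 in 4OHT, and 701 to 837 in EtOH_Rosi and 1287 to 1561 in 4OHT_Rosi. Bst2 alone of these markers was called, and the median change of the 7 was -0.09 without rosiglitazone and -0.04 with it. Of 6 measured lymphocyte markers 0 rose and 0 fell after 4-hydroxytamoxifen in either medium. Array values have no true zero, so no marker can be said to be at 0. Of 8 measured adipocyte markers 1 rose and 1 fell after 4-hydroxytamoxifen without rosiglitazone, and 0 changed with it. Rosiglitazone raised 4 and lowered 2 of these markers after ethanol, against 14.4% and 16.3% of all genes.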

How the data were processed

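The authors deposited log2 probe set values of 12 Affymetrix arrays, with 2 decimals, for 41345 probe sets. Affymetrix Expression Console is named in the submitters' processing notes, and its version, summary method and normalization were not given in the sources used here. Values ran from 3.05 to 13.91. Of the probe sets, 23521 carried 1 gene symbol and 1814 several, which were not named. The brightest probe set by mean over the arrays stood for a gene with more than 1, which left 22180 genes, with no filter on dim ones.

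Group means were estimated over all 12 arrays in limma 3.58.1 (R 4.3.3) with eBayes (8 residual and 5.07 prior degrees of freedom), and 5 contrasts were tested, with Benjamini-Hochberg adjustment over all genes at 0.05. Errors of differences are standard errors of limma. The same steps were tested on simulated data. Alternatives were another scaling, array weights, filters, the groups compared alone, a replicate block and leaving out each array, which was extended to the listed genes after seeing the data. The number of arrays limits the precision.

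The members, lists and motifs were chosen with earlier results of these data known. Named were all members, Prdm16, up to 4 called genes of a list by p, and the 3 nearest patterns of each called member.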

Additional observations from a re-analysis of the deposited data

Results flagged for a closer look

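Of the genes on the lists, 2 had an effect of 4-hydroxytamoxifen that differed between media with and without rosiglitazone by limma's interaction test. For Tlr8, the endosomal Toll-like receptor gene, the effect was larger with rosiglitazone by 0.93 ± 0.15 on the log2 scale (limma adjusted p = 0.013). That difference stayed called without any 1 array (0.83 to 1.03). Tlr8 was lower in EtOH_Rosi than in EtOH (-0.56, limma adjusted p = 0.000833) and higher in 4OHT_Rosi than in 4OHT (0.37, limma adjusted p = 0.0202, a call lost without the first or the third 4OHT array or the second or the third 4OHT_Rosi array). For Kdr, an endothelial marker, the effect was larger by 0.61 (limma adjusted p = 0.0379), with a change of 0.49 ± 0.09 with rosiglitazone (limma adjusted p = 0.00366). The Kdr difference was called in 1 of the 12 fits with an array left out, with limma adjusted p from 0.00487 to 0.102.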

How the results depend on the processing

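After 4-hydroxytamoxifen the 7 genes stayed called in both media under every alternative run, leaving out single arrays included, and 0 were called lower. The count of higher genes was 8 without rosiglitazone with array weights (Mavs added, 0.18, limma adjusted p = 0.0459) and 8 with rosiglitazone among genes above the median (Tbk1 added, 0.19, limma adjusted p = 0.0405). With rosiglitazone after ethanol, 1 of the 10 genes was higher in the main analysis and 2 with array weights, quantile normalization, arrays centred on their medians or genes above the median only, the added one being Ticam1. That count ran from 1 to 2 with an array left out, and the count of lower genes from 3 to 4. After 4-hydroxytamoxifen, 2 were higher and 0 lower in the main analysis; array weights gave 2 lower (Tlr3 and Adar), genes above the median gave 3 higher (Tbk1 added, 0.16, limma adjusted p = 0.0414), and the ranges without an array were 1 to 2 and 0 to 2. The interaction had 0 higher genes, 1 (Zbp1, 1.05 with limma adjusted p = 0.0251 and 1.03 with 0.0389) with array weights or genes above the median, and 0 to 1 without an array. The causes were not tested.

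Differences near 0 turned sign. With array weights these were Eif2ak2 with rosiglitazone after ethanol (-0.05) and the interactions of Eif2ak2 (0.01), Ticam1 (-0.01) and Tbk1 (-0.01). With an array left out they were, after 4-hydroxytamoxifen with rosiglitazone, Mavs (-0.06 to 0.03) and Ticam1 (-0.19 to 0.03), with rosiglitazone after ethanol Eif2ak2 (-0.03 to 0.07), after 4-hydroxytamoxifen Ifih1 (-0.01 to 0.08), and the interactions of Ticam1 (-0.06 to 0.16) and Tbk1 (-0.01 to 0.08).

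Replicate numbers did not pair the arrays: deviations of arrays with 1 number correlated at -0.24 to 0.08 between groups. With the replicate block, 1 gene in place of 2 was higher with rosiglitazone after 4-hydroxytamoxifen (Ticam1, limma adjusted p = 0.0504), and no other count changed.

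Another scaling moved the median of all genes by at most 0.037. The fit of only the groups compared gave no value for the interaction, and the mean of all probe sets changes no value of the 10 genes, each having 1. Detection near the lowest signals was not tested.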
